A study of Mus musculus with 22 samples.

Results

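Immediate early genes and heat shock genes were followed in RNA sequencing libraries of microglia, the macrophages that reside in the mouse retina, sorted as CD45 low, CD11b+, Ly6C-, Ly6G- and Tom+ cells. The set was a list of 30 gene symbols, 24 of them immediate early genes and 6 of them heat shock genes, among 28984 genes in the deposited table. Of the 30, 27 passed the filter on low values used for all genes, which asked for a normalised count of at least 30 in at least 5 libraries, and 12868 genes in all passed it. Jund, Egr2 and Egr3 did not pass. The 22 libraries came from animals labelled control or Vldlr knockout (KO), the latter lacking the very low density lipoprotein receptor, at postnatal day 17 (P17) and 31 (P31). At P17 the labels list 7 controls and 5 KO, and at P31 they list 5 of each. The strain, the sex of the animals, the driver of the Tom reporter and whether libraries were single animals or pools are not stated in the labels. Separate animals are not named for the libraries either, and p-values then measure only how far these libraries spread, which may be technical. In bulk RNA, fewer cells of a type and less RNA per cell cannot be told apart.

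Immediate early genes are switched on within minutes of a stimulus, without new protein synthesis, by transcription factors already present in the cell, among them serum response factor and the cAMP response element binding protein. They encode transcription factors such as the Fos and Jun partners of the AP-1 complex, the Egr zinc fingers and the Krüppel-like factors, and feedback proteins that end the signal, such as the phosphatase Dusp1 and the RNA-binding protein Zfp36. Heat shock genes are induced by heat shock factor when unfolded protein builds up, and they encode the Hsp70, Hsp90, Hsp40 and Hsp110 chaperones. Both groups are known to rise in microglia while tissue is dissociated and cells are sorted, so their levels are often read as a sign of handling as well as of the state of the cells in the animal.

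Library quality bears on every value that follows. The libraries held 23.9 to 54.0 M recovered reads (M, mega), and 1 read was worth 0.578 to 1.29 normalised counts. The 14 microglia markers summed to 1131177 to 2887501 normalised counts per library. The sums were 80.7 to 1284 for 10 monocyte and macrophage markers and 0 to 396 for 9 neutrophil markers. The neutrophil sum was 70.3 to 396 in the P17 controls against 0 to 5.02 in the P17 KO. At P31 its median was 0 in controls and 0.830 in the KO, with overlap. S100a9, the 1 neutrophil marker tested, was called lower in the KO at P17 but not at P31. Of the 14 microglia markers, Slc2a5 alone was called for the KO effect. It was lower at both ages, with log2 fold changes of -5.09 at P17 and -6.13 at P31. Rod photoreceptor RNA was present in every library, with 20 rod markers summing to 11128 to 413183. The 15 Mueller glia and astrocyte markers summed to 42709 to 113334 in the P17 KO against 14721 to 34469 in the P17 controls, and to 62382 to 84854 against 8444 to 12014 at P31. Most of that sum in the KO was 1 gene, the glutamate transporter Slc1a3, with means of 57291 against 2147 at P17 and 64502 against 2523 at P31. The other 14 summed to 14503 to 28310 against 12906 to 31282 at P17, with overlap, and to 9312 to 12867 against 6474 to 8856 at P31, without overlap. Of the 11 of these markers tested, 8 had a log2 fold change below 0 at P17 (median -1.44) and 5 at P31 (median 0.06). Slc1a3 and Kcnj10 were called higher at both ages, Clu was called lower at P17, and Sox9, Abca8a and Pax2 were at 0 in every P31 KO library. P17 KO library 1 stood apart, because the size factor in the deposited table was 0.814 where DESeq2 gives 0.338 and TMM (trimmed mean of M-values) gives 0.368. Its deposited values therefore sat lower than under TMM, which multiplies them by 2.21, against 0.932 to 1.04 in the other 21 libraries. The targeted gene Vldlr was read 49 to 790 times in the P17 controls and 0, 17, 0, 13 and 0 times in the P17 KO. At P31 it was read 875 times in control 1 and 0 times in the other controls, and 0, 1, 65, 1 and 14 times in the KO, so at P31 it gave no check of the genotype. Sex markers differed between the groups compared. The Y-linked gene Ddx3y was at 100 normalised counts or more in 7 of 7 P17 controls, 2 of 5 P17 KO, 2 of 5 P31 controls and 0 of 5 P31 KO, and Xist in 2, 5, 3 and 5 of them. Of the 5 sex markers, 5 had an unadjusted p under 0.05 for the KO effect at P17, 4 at P31, 4 with age in controls and 0 with age in the KO, and Uty was called lower in the P17 KO. The part of sex in the genotype and age comparisons was not tested beyond a fit with a Y-linked score as a covariate, which called 0 members at P17, Junb at P31 and 0 with age in controls. P17 control 4 and 6 and P17 KO 1 and 4 held both Xist and Y-linked transcripts at 100 normalised counts or more.

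The heat shock members show why not every member can be read as a single gene, and 3 promoters are printed for that reason and for the element that heat shock factor recognises. The sequences are RefSeq windows on GRCm38.p6, from 250 bases before to 50 bases after the annotated start, written 5′ to 3′ on the gene's strand. Hspa1a and Hspa1b, neighbouring genes for the inducible Hsp70, share 296 of the 300 positions (98.7%). In their sequences the capitals mark the 4 positions that differ. Hsph1 encodes the Hsp110 nucleotide exchange factor, and its capitals mark the heat shock motifs described after the sequences.
Hspa1a (chr17:34972107-34972406, minus strand): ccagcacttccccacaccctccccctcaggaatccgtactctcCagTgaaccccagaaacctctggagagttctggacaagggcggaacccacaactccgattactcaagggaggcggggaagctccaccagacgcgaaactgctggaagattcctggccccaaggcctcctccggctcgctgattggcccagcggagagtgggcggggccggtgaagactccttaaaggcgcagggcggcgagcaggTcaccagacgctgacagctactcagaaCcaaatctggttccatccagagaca
Hspa1b (chr17:34959189-34959488, minus strand): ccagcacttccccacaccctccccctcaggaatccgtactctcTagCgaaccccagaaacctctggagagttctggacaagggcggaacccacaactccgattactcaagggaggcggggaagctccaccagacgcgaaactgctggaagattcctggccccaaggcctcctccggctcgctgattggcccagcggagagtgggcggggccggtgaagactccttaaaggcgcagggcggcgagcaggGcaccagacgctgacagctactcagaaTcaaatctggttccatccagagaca
Hsph1 (chr5:149636266-149636565, minus strand): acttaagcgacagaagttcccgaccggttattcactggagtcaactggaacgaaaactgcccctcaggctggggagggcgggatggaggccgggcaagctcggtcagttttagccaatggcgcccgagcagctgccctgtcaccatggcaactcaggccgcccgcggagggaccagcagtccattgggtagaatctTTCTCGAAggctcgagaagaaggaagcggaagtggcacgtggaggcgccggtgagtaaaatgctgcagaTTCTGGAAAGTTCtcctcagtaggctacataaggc
Promoters were found for 24 of the 30 members (20 early and 4 heat shock), and both strands were searched. No window was available for Egr1, Egr3, Ier2, Rgs1, Hsp90aa1 and Hspa8, so these were not searched. Sites outside the windows of 300 bases were not searched in any member, so a motif not found here may still lie elsewhere. A heat shock pair, 2 facing repeats of the unit that heat shock factor binds, stood in 3 of 4 heat shock members (once each in Hspa1a and Hspa1b, and 3 times in Hsph1) and in 3 of 20 early members (Egr2, Fosl2 and Jun), against 15.1% of 32851 promoters of the same length. This pair was added after a first search for the full heat shock element, which adds another facing repeat to it and so overlaps it. The full element was in Hsph1 alone among the members and in 0.603% of all promoters. The CArG box, the binding motif of serum response factor, was in Egr2 and Zfp36 and in 1.63% of all promoters. The full cAMP response element was in Btg2 and Dusp1 and in 1.79%, and the AP-1 site was in 0 members and 7.81%. A member with several windows, such as Egr2, was counted if any of them held the motif. The shares of all promoters are per window, so the counts and shares are not strictly alike. Hspa1a and Hspa1b, with nearly identical windows, are not separate observations of the heat shock pair. The copies are alike in their transcripts too. Of the 50-base stretches of the annotated transcripts, Hspa1a shared 66.3% and Hspa1b 62.3% with other genes, Hsp90aa1 47.5% and Hspa8 39.4%. How reads that match several genes were counted is not given in these sources, so the split between Hspa1a and Hspa1b is uncertain, and so are the levels of Hsp90aa1 and Hspa8.

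Ranked by level per length (reads per kilobase of exon and per mega reads, calculated from the recovered reads, median over the 22 libraries), the set spanned a wide range of expression. Hspa8, the constitutive Hsp70, reached 115.5, Rhob 114.7 and Junb 98.8, which placed them at the 97.5, 97.5 and 97.1 percentiles of the tested genes. Btg2 at 89.5, Klf6 at 74.9 and Jun at 61.8 followed. Egr1 at 4.23, Hsph1 at 3.11 and Fos at 2.89 lay near the middle, at the 52.5, 45.9 and 44.3 percentiles. The inducible Hsp70 genes were near the bottom, Hspa1b at 0.264 and Hspa1a at 0.190. Jund held 0 to 3 reads in every library, and 52.6% of its exon bases overlap the antisense gene Gm11175 (877 of 1668 bases). The strand setting of the counting is not stated, and reads from the 2 genes cannot be told apart without it, so the level of Jund is uncertain. Egr2 held 0 to 19 reads and Egr3 0 to 53.

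**Figure D1:**
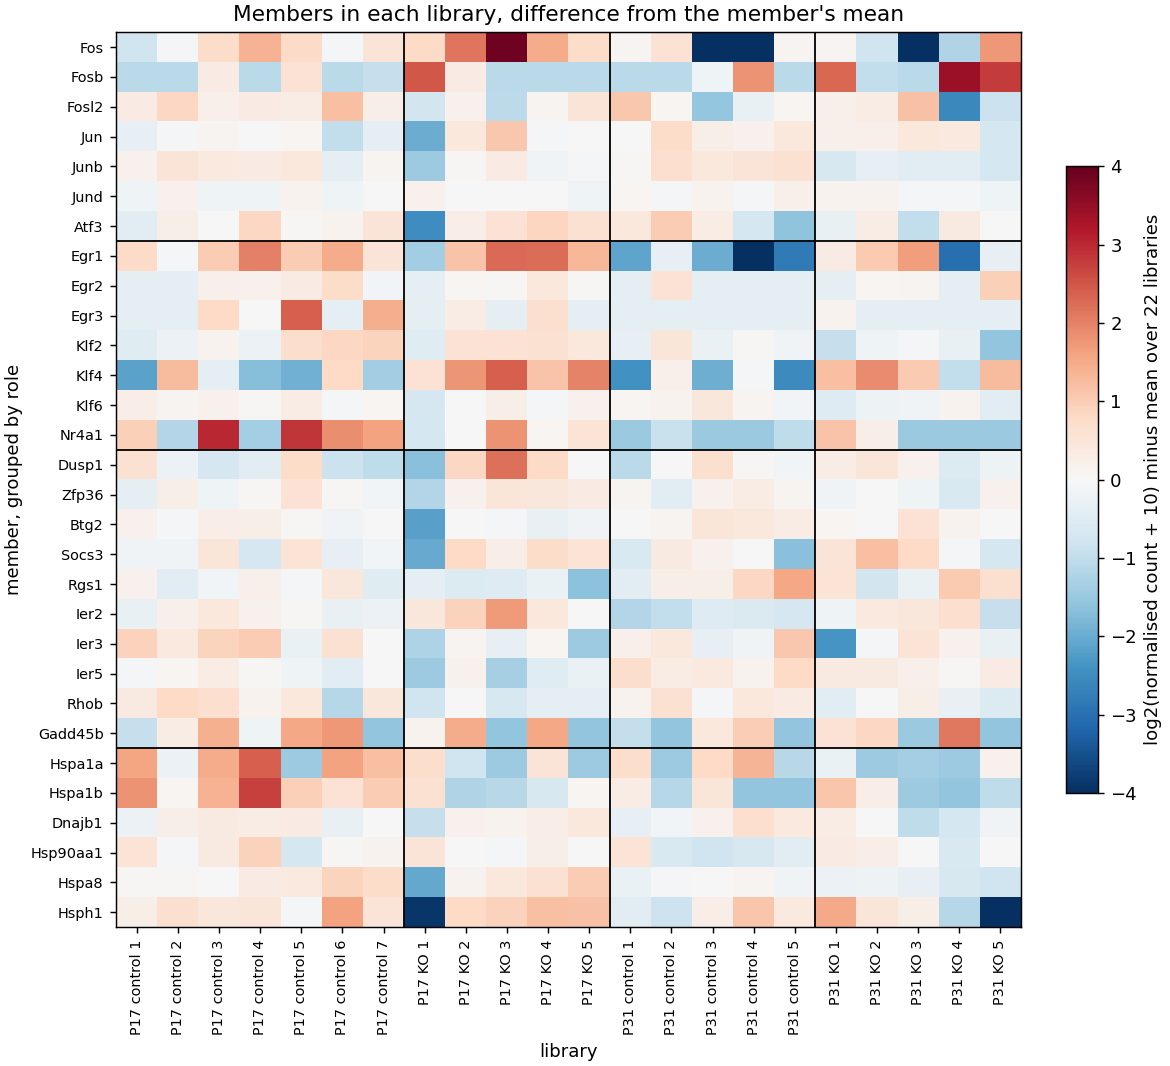
Colour shows each member's log2(normalised count + 10) in each of the 22 libraries (columns, in group order) minus that member's mean over all libraries, with members in rows by role and colours capped at 4 in either direction. With the deposited scaling shown, P17 KO 1 is low for most early members, and Egr1 is low in 5 of 5 P31 controls.

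Few members passed the test across all genes (limma, Benjamini-Hochberg adjusted over 12868 genes, called at an adjusted p under 0.05). At P17, 0 of the 27 tested members were called, where 1.52% of all genes were. At an unadjusted p under 0.05 there were 8 of 27, against 14.7% of all genes. At P31, 1 member was called, Junb, which was lower in the KO, against 2.88% of all genes. At an unadjusted p under 0.05 there were 4 of 27, against 13.6%. With age, Egr1 fell in the controls, the only member called there, against 1.46% of all genes, and 6 of 27 had an unadjusted p under 0.05 (14.0% of all genes). In the KO 0 members were called with age (0.886% of all genes), with 5 at an unadjusted p under 0.05 (14.6%). For the difference between the KO effects at P31 and P17, 0 were called (0.0466%), with 1 at an unadjusted p under 0.05 (7.98%). DESeq2 called 1, 2, 2, 4 and 0 of the 27 members in these 5 comparisons, against 4.72%, 5.32%, 4.76%, 6.31% and 1.50% of the 12190 genes to which it gave an adjusted p. edgeR called 0, 1, 0, 0 and 0 members, against 2.71%, 1.69%, 0.575%, 1.70% and 0.0233% of all genes. The libraries of the 2 groups compared did not overlap for 1 member at P31 (Junb, 5.56% of all genes), 2 with age in controls (Egr1 and Ier2, 4.58%) and 0 with age in the KO (3.61%). With at most 1 of 27 called by limma, the members' share lay near that of all genes. The authors' deposited table gives 29 members an adjusted p, which was under 0.05 for 0 at P17 (2.80% of all genes), 3 at P31 (4.58%), 2 with age in controls (4.83%) and 1 with age in the KO (4.33%).

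**Figure D2:**
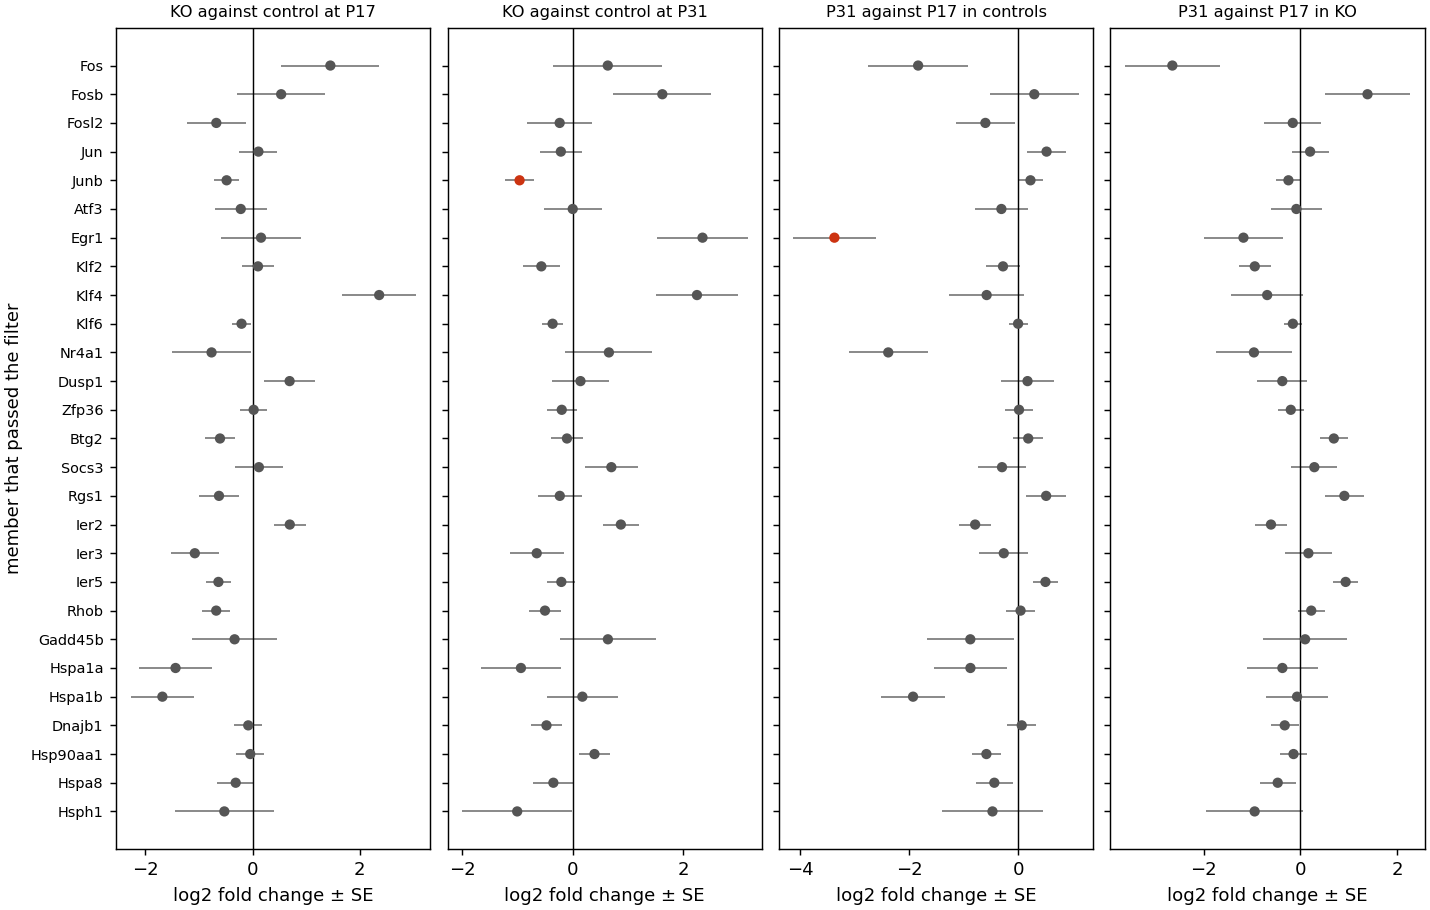
Points give the log2 fold change of each of the 27 tested members in 4 comparisons, with bars of 1 standard error, and red marks an adjusted p under 0.05. Junb at P31 (-0.96) and Egr1 with age in controls (-3.37) are the 2 red points, and Klf4 lies to the right in both KO comparisons.

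Junb, a Jun family subunit of AP-1, was the member that separated the genotypes at P31. Its normalised count was 7136, 11059, 9309, 9903 and 10444 in the P31 controls and 4456, 5527, 5185, 5007 and 4213 in the P31 KO. Every KO library lay below every control library, a pattern shared by 2.53% of all genes in that direction. The log2 fold change was -0.96 ± 0.26 (SE, limma adjusted p = 0.0403), a 1.95-fold lower level. At P17 Junb was 5352 to 9804 (median 8649) in the controls and 2514, 7094, 8735, 6335 and 6476 in the KO. The P17 groups overlapped, and the log2 fold change was -0.48 ± 0.24 (SE, limma adjusted p = 0.349). P17 KO 1 was the lowest of the 12 libraries with the deposited scaling, and TMM multiplies its values by 2.21. The difference between the KO effects at the 2 ages was -0.48 ± 0.35 (SE, limma adjusted p = 0.770), so the effects were not shown to differ. The P31 call sat close to the threshold: the adjusted p rose above it, to at most 0.104, without any 1 of P17 control 1, 3, 4, 5 or 7, P31 control 2, 3, 4 or 5, or any P31 KO library. Those P17 libraries touch a P31 result because all 22 share 1 estimate of the spread. The log2 fold change itself stayed between -1.13 and -0.91 in 36 alternatives, 20 of which called it, and the adjusted p was 0.102 with the rod score as a covariate and 0.000424 with TMM scaling and P17 KO 1 left out. With the Y-linked score as a covariate it was 0.0306. The 5 P31 KO libraries also held more Slc1a3, a higher sum of the other 14 Mueller glia and astrocyte markers and, in 20 of 20 rod markers, a higher fitted mean, and the part of these in the Junb difference was not tested. Junb lies at 84974484 to 84978718 on chromosome 8 of mm10, and 7.52% of its exon bases overlap Prdx2 on the other strand. The authors' deposited table gives Junb a log2 fold change of -0.97 at P31 with an adjusted p of 0.00206.

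The other AP-1 members did not share that call. Jun, the founding Jun subunit, was 2968 to 6426 (median 5762) in the P17 controls and 1474, 7855, 12592, 5732 and 6016 in the P17 KO. With the deposited scaling P17 KO 1 and KO 3 held the lowest and the highest Jun of the 12. TMM multiplies KO 1 by 2.21 and P17 control 6, the lowest control, by 0.932, so the rank of KO 1 depends on the scaling. The log2 fold change was 0.11 ± 0.35 (SE, limma adjusted p = 0.889). At P31 Jun was 5937, 9770.1, 6942, 6668 and 7928 in the controls and 6751, 6809.9, 7879, 7694 and 3619 in the KO. These groups overlapped, with KO 5 the lowest, and the log2 fold change was -0.22 ± 0.38 (SE, limma adjusted p = 0.861). Fos, the partner that binds Jun proteins, was 94.5 to 468 (median 248) in the P17 controls and 305, 789.9, 2692, 494 and 291 in the P17 KO. KO 3 stood far above all others for Fos, and the KO effect was 1.45 ± 0.91 (SE, limma adjusted p = 0.436). The P31 Fos values were 184, 261, 1.49, 0 and 184 in the controls and 186, 94.7, 0.848, 68.7 and 591 in the KO. Fos was thus present in some P31 libraries of both genotypes and near 0 in control 3, control 4 and KO 3, and its log2 fold change with age in the KO was -2.65 ± 0.99 (SE, limma adjusted p = 0.203).

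Fosb, a Fos family subunit, passed the filter with exactly 5 libraries at or above 30. It was 108, 16.7, 0, 0 and 0 in the P17 KO and 95.4, 0.783, 0, 220.4 and 138 in the P31 KO, at most 21.9 in the P17 controls, and 0, 0, 8.97, 63.9 and 0 in the P31 controls. The 5 libraries at or above 30 were P17 KO 1, P31 control 4 and P31 KO 1, 4 and 5, and the change with age in the KO was 1.39 ± 0.89 (SE, limma adjusted p = 0.492). Fosl2, another Fos family subunit, ranged from 13.6 to 313 and Atf3, a stress-induced relative of AP-1 subunits, from 157 to 1892, with no adjusted p under 0.05. Of the 6 tested AP-1 and ATF members, 3 lay below 0 for the KO effect at P17 and 4 at P31, with median log2 fold changes of -0.06 and -0.11.

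Egr1 is a zinc finger factor and a standard readout of immediate early activity. In the fit with a pseudocount of 10 it had the largest age difference in controls among the 27 tested members. The authors' deposited table gives a larger one for Nr4a1 (-5.61) than for Egr1 (-2.98). The normalised count of Egr1 was 386 to 1681 (median 820.1) in the P17 controls and 85.2, 319, 95.7, 4.98 and 48.3 in the P31 controls. Every P31 control lay below every P17 control, which 2.88% of all genes also did, and the log2 fold change was -3.37 ± 0.76 (SE, limma adjusted p = 0.0266), a 10.4-fold lower level. The KO libraries held 149, 909, 1989.99, 1936 and 1035 at P17 and 513, 839.7, 1302, 41.6 and 320.3 at P31. They overlapped with each other and with the controls of both ages, and the change with age in the KO was -1.18 ± 0.82 (SE, limma adjusted p = 0.534). At P31 the KO effect on Egr1 was 2.35 ± 0.82 (SE, limma adjusted p = 0.152), and 4 of 5 KO libraries lay above every control, while KO 4 lay below 4 of the 5 controls. That effect was called only in DESeq2 (adjusted p = 0.0164), without P31 KO 4 (log2 fold change 3.09, limma adjusted p = 0.0230) and with TMM scaling and P17 KO 1 left out (limma adjusted p = 0.0475). Rod markers lay on the same side in that comparison: 20 of 20 had a log2 fold change above 0 in the P31 KO (median 1.80), 8 of them with an unadjusted p under 0.05 and 0 called. The difference between the KO effects was 2.19 ± 1.11 (SE, limma adjusted p = 0.652), which does not show that the KO effect changed with age.

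Rod markers were also lower with age in controls. Of 20 rod markers tested, 10 were called lower in P31 than in P17 controls, with a median log2 fold change of -3.30 over the 20. The rod score, their mean log2(normalised count + 10), was 9.15 to 12.9 in the P17 controls and 11.03, 7.29, 7.98, 7.03 and 6.61 in the P31 controls. In a fit that held the rod score as a covariate, the Egr1 log2 fold change was -2.90 and the adjusted p 0.561, and 3 genes in all were then called in that comparison in place of 188. Leaving out P17 control 1, 3 or 4 or P31 control 4 or 5 also ended the call, with an adjusted p of at most 0.0804. So did the Y-linked score as a covariate (limma adjusted p = 0.0918), edgeR (adjusted p = 0.0646), the replicate number as a block (limma adjusted p = 0.0840) and no filter on low values (limma adjusted p = 0.0695), with log2 fold changes of -3.63, -2.94, -3.35 and -3.37. The part of rod RNA and of sex in the Egr1 differences was not tested beyond these values. The authors' deposited table gives Egr1 a log2 fold change of -2.98 with age in controls (adjusted p of 0.00181) and of 2.45 for the KO at P31 (adjusted p of 0.0359).

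Klf4, a Krüppel-like factor, was higher on average in the KO at both ages without passing the test. Its normalised count was 3.46 to 131 (median 12.6) in the P17 controls and 77.4, 192, 301, 120.4 and 223 in the P17 KO. Only control 2 and control 6 of the P17 controls reached the KO range, and the log2 fold change was 2.36 ± 0.69 (SE, limma adjusted p = 0.105). Without P17 control 2 it was 2.703 (limma adjusted p = 0.0489). At P31 Klf4 was 0.916, 58.3, 5.23, 45.6 and 0 in the controls and 125, 207, 113, 19.9 and 133 in the KO. KO 4 alone fell within the control range, and the log2 fold change was 2.25 ± 0.75 (SE, limma adjusted p = 0.125). Klf4 was sparse, with 0 to 265 reads per library, and its effect at the 2 ages differed by -0.11 ± 1.02 (SE, limma adjusted p = 0.988).

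Klf6, another Krüppel-like factor, was 10076 to 12762 (median 11131) in the P17 controls and 6566, 10233, 12137, 9875 and 11641 in the P17 KO. It was 10949, 11505, 14193, 11218 and 9593 in the P31 controls and 7260.5, 9100.4, 9424, 11590.3 and 7525 in the P31 KO. Klf6 varied little, and its KO effects were -0.21 ± 0.17 (SE, limma adjusted p = 0.545) at P17 and -0.36 ± 0.19 (SE, limma adjusted p = 0.411) at P31. Klf2, a factor linked to a quiescent state of macrophages, was 967 to 2543 (median 1526) in the P17 controls and 968, 2039, 2034, 2095 and 1837 in the P17 KO. At P31 it was 1084, 1919, 1137, 1403 and 1249.8 in the controls and 711, 1207, 1301, 1113 and 456 in the KO. With the deposited scaling P17 KO 1 overlapped the P31 KO libraries, and TMM multiplies its values by 2.21. The log2 fold change with age in the KO was -0.95 ± 0.33 (SE, limma adjusted p = 0.179). Without P17 KO 1 it was -1.15 (limma adjusted p = 0.0395). Nr4a1, an orphan nuclear receptor, had at most 216 normalised counts in the P17 controls and 0, 5.2, 0, 0 and 3.79 in the P31 controls, and its change with age there was -2.38 ± 0.73 (SE, limma adjusted p = 0.0982). DESeq2 called it (adjusted p = 0.00951). The authors' deposited table gives -5.61 (adjusted p of 0.00455).

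**Figure D3:**
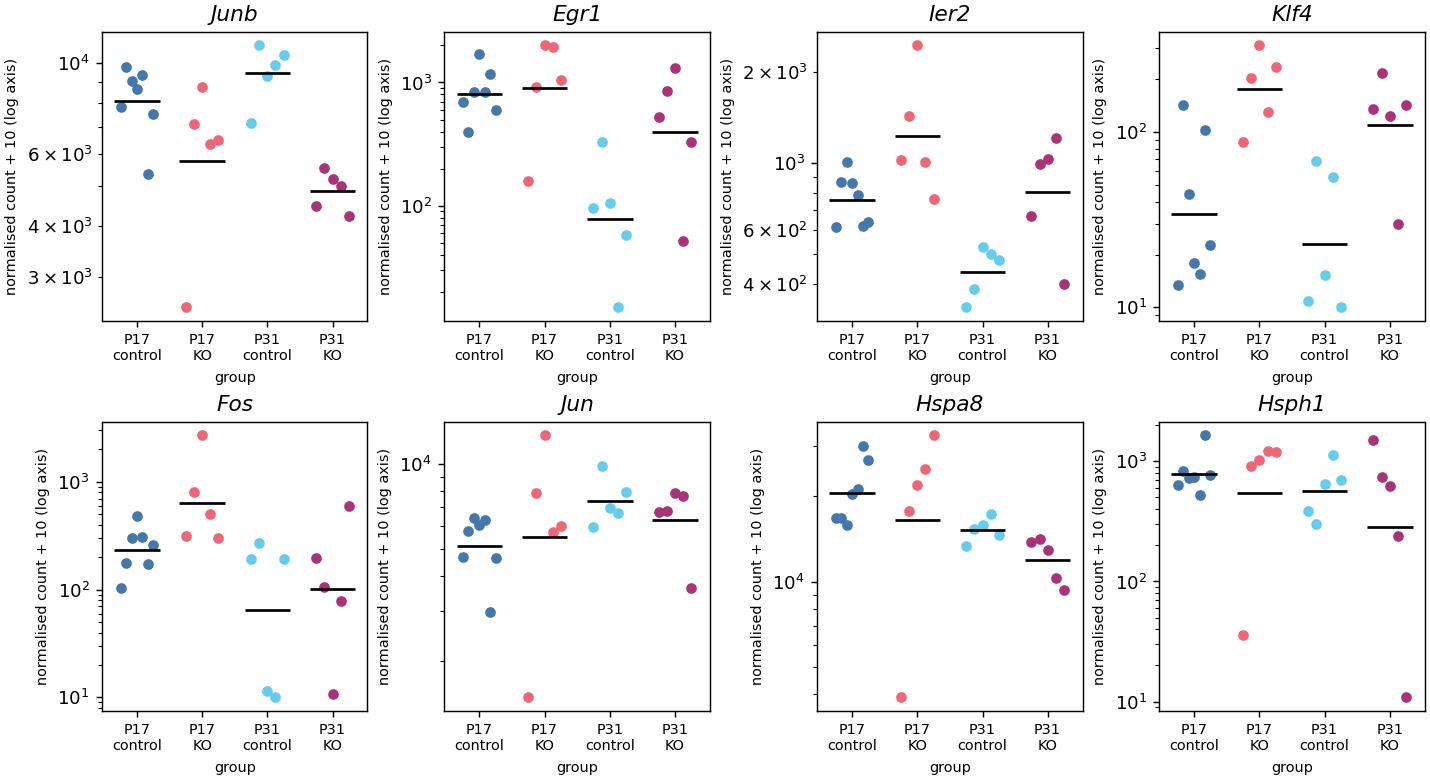
Each point is 1 library's normalised count + 10 on a log axis for 8 members, by group, and the bar is the mean on the log scale. Junb has no overlap between P31 controls and P31 KO, and Egr1 and Ier2 have none between P17 and P31 controls. With the deposited scaling shown, P17 KO 1 is the lowest point for Jun, Junb, Hspa8 and, among P17 libraries, Hsph1.

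Among the feedback and signalling members, 10 of 10 were tested and 0 were called in any comparison. Ier2, a nuclear protein of the early response, separated the ages in controls without passing the test. It was 605 to 996 (median 774) in the P17 controls and 324, 373, 519, 493 and 468 in the P31 controls, with no overlap, and the change was -0.79 ± 0.30 (SE, limma adjusted p = 0.201). In the KO it was 1015, 1426, 2437, 999 and 750.2 at P17 and 661, 981, 1023, 1199.8 and 391 at P31. At P31 only KO 5 fell within the control range, and the KO effect was 0.87 ± 0.32 (SE, limma adjusted p = 0.194), against 0.69 ± 0.30 (SE, limma adjusted p = 0.297) at P17. The change with age in controls passed when only the 2 groups compared were fitted (limma adjusted p = 0.0422), and the P17 effect passed in DESeq2 (adjusted p = 0.0200). The authors' deposited table gives Ier2 a log2 fold change of 0.97 at P31 (adjusted p of 0.0424).

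Rhob, an early-response small GTPase, was 3637 to 14003 (median 10813) in the P17 controls and 4627, 7985, 5203, 6179 and 6331 in the P17 KO. P17 control 6 lay far below the other controls and below all P17 KO libraries. The log2 fold change was -0.68 ± 0.26 (SE, limma adjusted p = 0.243), and without P17 control 6 it was -0.91 (limma adjusted p = 0.0151). Without the 4 libraries that held both Xist and Y-linked transcripts it was -0.87 (limma adjusted p = 0.0235). At P31 Rhob was 8793, 12383, 7748, 10872 and 10152 in the controls and 5979, 8046, 9432, 6505 and 5525 in the KO. The groups overlapped and the effect was -0.50 ± 0.28 (SE, limma adjusted p = 0.466).

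Btg2, an antiproliferative gene, was 6669.5 to 8852 (median 7655) in the P17 controls and 1623, 7488, 6920.03, 6046 and 6682 in the P17 KO. At P31 it was 7365, 7931, 10374, 9839 and 9016 in the controls and 7805, 7318, 10903, 8163 and 7360.1 in the KO. P17 KO 1 was the lowest library for Btg2 by a wide margin, and the P17 KO effect was -0.61 ± 0.27 (SE, limma adjusted p = 0.310). Dusp1, the phosphatase that switches off MAP kinases, was 262 to 905 (median 400.03) in the P17 controls and 162, 972, 2523, 929 and 547 in the P17 KO. Dusp1 was highest in the same library as Fos and Jun, P17 KO 3, and its P17 KO effect was 0.69 ± 0.48 (SE, limma adjusted p = 0.475). Among the P17 libraries KO 3 was also the highest for Egr1, Ier2 and Klf4, but not for Junb, Btg2, Rhob or Klf2. At P31 Dusp1 was 251, 547, 852, 567 and 507 in the controls and 663, 772, 618, 371 and 473 in the KO, which overlapped.

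Ier5, a nuclear early-response protein, had a log2 fold change with age in the KO of 0.93 ± 0.26 (SE, limma adjusted p = 0.0812) and was called without P17 KO 2 (log2 fold change 1.14, limma adjusted p = 0.0254). The authors' deposited table gives 0.81 (adjusted p of 0.0294). Zfp36, which promotes decay of AU-rich mRNAs, held 1895 to 6372 normalised counts and Socs3, an inhibitor of cytokine signalling, 420 to 4008. Rgs1, which shortens G protein signalling, held 131 to 1255, Ier3, an early-response survival gene, 51.0 to 647, and Gadd45b, a stress-response gene, 0 to 121. None of these 5 had an adjusted p under 0.05 in any of the 5 comparisons, and the smallest was 0.280, for Ier3 at P17.

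Heat shock members were tested in full, 6 of 6, and 0 were called in any comparison. Their log2 fold changes were below 0 for 6 of 6 at P17 (median -0.42, all genes -0.30), for 4 of 6 at P31 (median -0.41, all genes -0.05), for 5 of 6 with age in controls (median -0.53, all genes -0.10) and for 6 of 6 with age in the KO (median -0.35, all genes 0.08). Against the median of all genes at P17, 4 of 6 were lower with the deposited scaling and 3 of 6 with TMM. Without P17 KO 1 the P17 median over the 6 was 0.01, while the difference in their mean, given with the scores further on, stayed below 0. With age in the KO, 6 of 6 lay below the median of all genes with either scaling and 3 of 6 without P17 KO 1.

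Hspa8 was 15849 to 29981 (median 20369.9) in the P17 controls and 3895, 17752, 21819.99, 24890.2 and 32765 in the P17 KO. P17 KO 1 was far below every other P17 library. At P31 Hspa8 was 13379, 15254, 15797, 17277 and 14567 in the controls and 13778, 14149, 12921, 10267 and 9304 in the KO, which overlapped, and the KO effect was -0.35 ± 0.37 (SE, limma adjusted p = 0.748). The change with age in the KO was -0.47 ± 0.37 (SE, limma adjusted p = 0.593). Hspa8 was called lower there by DESeq2 and by limma without P17 KO 1.

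Hsp90aa1, the inducible Hsp90, was 1791 to 5569 (median 3237) in the P17 controls and 4212, 2887, 2789, 3456 and 2991 in the P17 KO. It was 4289.99, 1899, 1677, 1861 and 2124 in the P31 controls and 3664, 3487, 2943, 1923 and 2942 in the P31 KO. P31 control 1 stood above the other P31 controls, and the change with age in controls was -0.58 ± 0.27 (SE, limma adjusted p = 0.319). Hsph1, whose promoter held the full heat shock element, was 510.2 to 1635 (median 733) in the P17 controls and 25.8, 909, 1006, 1206 and 1191 in the P17 KO. At P31 it was 377, 288, 638, 1129.8 and 689 in the controls and 1504, 735, 613, 230.4 and 0.83 in the KO. Hsph1 was nearly absent from P17 KO 1 and P31 KO 5 while it was among the highest in P31 KO 1, and its P31 KO effect was a log2 fold change of -1.01 (limma adjusted p = 0.724).

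The inducible Hsp70 genes were sparse. Hspa1b was 21.9 to 190.1 (median 50.5) in the P17 controls and 35.6, 2.95, 3.75, 9.06 and 21.3 in the P17 KO. At P31 it was 26.6, 3.47, 32.1, 0 and 0 in the controls and 55.3, 25.8, 0.848, 0 and 4.98 in the KO. The P17 controls were the highest group, with overlap, at -1.68 ± 0.59 (SE, limma adjusted p = 0.204) for the KO effect at P17 and -1.93 ± 0.59 (SE, limma adjusted p = 0.1003) for age in controls. The difference between the KO effects was 1.86 ± 0.87 (SE, limma adjusted p = 0.615). Hspa1a ran from 0 to 134 in the P17 controls and from 0 to 61.4 elsewhere, with a P17 KO effect of -1.44 ± 0.67 (SE, limma adjusted p = 0.328). Dnajb1, the Hsp40 partner of Hsp70, held 929 to 3029 normalised counts, with effects of -0.08 at P17 and -0.47 at P31 and adjusted p values of 0.889 and 0.506.

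As a whole the set was summarised by 2 scores, the mean log2(normalised count + 10) over the 21 tested early members and over the 6 heat shock members, with no test. The immediate early score was 9.60 ± 0.22 (SD, n = 7) in P17 controls, 9.59 ± 0.55 (SD, n = 5) in P17 KO, 9.17 ± 0.19 (SD, n = 5) in P31 controls and 9.43 ± 0.16 (SD, n = 5) in P31 KO. The P17 KO mean rests on 1 library, since KO 1 scored 8.68 and the other KO libraries 9.49 to 9.99. With TMM scaling that library scored 9.76, and the KO minus control difference at P17 went from -0.00392 to 0.24. The same difference at P31 was 0.27, and 0.29 with TMM, where the 5 KO libraries overlapped with P31 control 2 alone. With the median over members in place of the mean, the P31 difference was 0.62. The KO log2 fold changes of the 21 early members at P31 had a median of -0.10 (all genes -0.05). Of these, 9 lay above 0 and 12 below. The heat shock score was 9.75 ± 0.42 (SD, n = 7) in P17 controls, 9.07 ± 0.47 (SD, n = 5) in P17 KO, 9.04 ± 0.40 (SD, n = 5) in P31 controls and 8.68 ± 0.69 (SD, n = 5) in P31 KO. The KO minus control difference at P17 was -0.68, against -0.44 with TMM, where the P17 KO libraries scored 9.23 ± 0.23 (SD, n = 5), and -0.50 without P17 KO 1. The same mean over all tested genes was 8.86 in P17 controls and 8.55 in P17 KO, and 8.79 and 8.69 with TMM. Each of the 6 members weighs equally in the score, and the sparse Hspa1a and Hspa1b had the largest changes at P17. The P31 KO libraries were the most spread for heat shock, from 7.96 in KO 5 to 9.65 in KO 1. Over all 27 tested members, the median log2 fold change was -0.22 at P17 (all genes -0.30), -0.20 at P31 (all genes -0.05), -0.29 with age in controls (all genes -0.10) and -0.16 with age in the KO (all genes 0.08). TMM moved the median of all genes at P17 to -0.07 and that of the members to 0.03, and 15 of 27 members then lay above the median of all genes, against 14 with the deposited scaling.

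**Figure D4:**
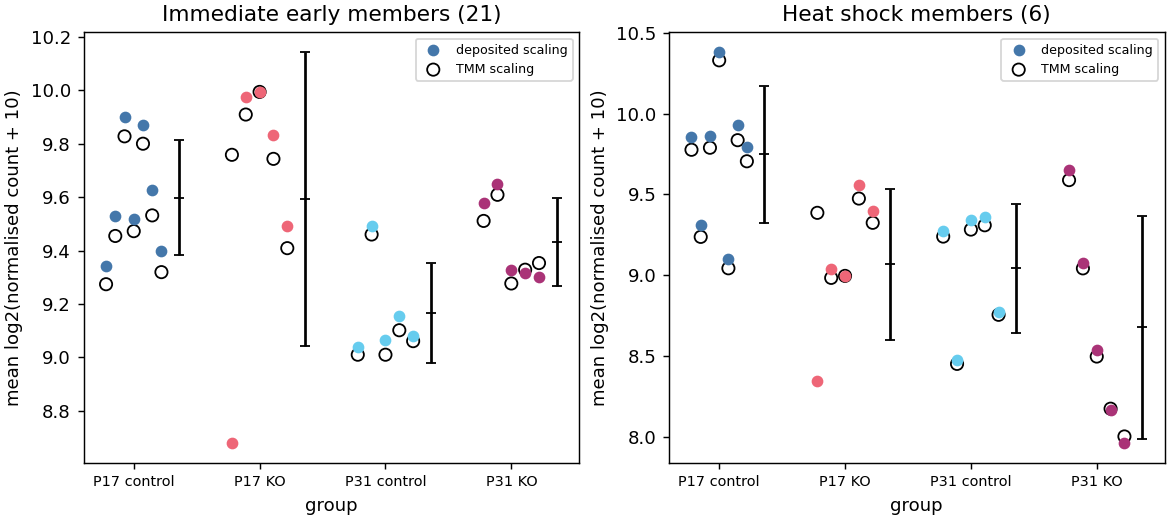
Filled points give each library's mean log2(normalised count + 10) over 21 early members (left) and 6 heat shock members (right) with the deposited scaling, open circles the same with TMM, and bars the group mean and SD of the filled points. P17 KO 1 moves from 8.68 to 9.76 in the left panel, and the other libraries move little.

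Pairs of members were on the median weakly correlated from library to library within their groups. After each member was centred on its group means, the median Pearson correlation over 210 pairs of early members was 0.171 across the 22 libraries (all genes 0.0628), 0.0169 without P17 KO 1 (all genes 0.0117) and 0.00816 with TMM (all genes 0.00750). The libraries share their depth scaling, so these are descriptions. For the 15 pairs of heat shock members the median was -0.0153 with the deposited scaling and 0.0125 with TMM. Without P17 KO 1 it was 0.112 with the deposited scaling (12 of 15 pairs above 0, all genes 0.0117). With TMM and without that library it was 0.0953 (11 of 15 above 0, all genes 0.00469). For the 126 early with heat shock pairs the median was 0.0220 with the deposited scaling and -0.0282 with TMM. Without P17 KO 1 these were -0.0450 and -0.0714. Jun with Junb, singled out after the values were seen, had the highest correlation of the 351 pairs (0.830 with TMM, 0.849 with TMM and without P17 KO 1). Hspa1a with Hspa1b reached 0.521 with TMM. Jun and Hspa1a went in opposite directions (-0.628 with TMM).

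Few related genes outside the set passed the test. Of 35 other early response genes, 27 were tested and Klf10 alone was called, for the KO effect at P17, where 1.52% of all genes were. Klf10, a Krüppel-like factor induced by transforming growth factor beta, rose in the KO at P17 (log2 fold change 1.06 ± 0.26 SE, limma adjusted p = 0.0327). Its normalised count was 918 to 1582 in the P17 controls and 1649 to 2799 in the P17 KO. Of 29 other chaperones and heat shock factor targets, 27 were tested and Ptges3 alone was called, with age in controls, where 1.46% of all genes were. This Hsp90 cochaperone was higher at P31 (0.68 ± 0.17 SE, limma adjusted p = 0.0461). Its normalised count was 1115 to 1688 in P17 controls and 1898 to 2565 in P31 controls. The 20 kinases and serum response factor cofactors that act upstream were all tested and 0 were called, with 2, 1, 1, 3 and 0 at an unadjusted p under 0.05 in the 5 comparisons. Among all genes the shares at that threshold were 14.7%, 13.6%, 14.0%, 14.6% and 7.98%. Of 14 inflammatory genes known to be induced by cell isolation, 11 were tested and Nlrp3 alone was called, for the KO effect at P31, where 2.88% of all genes were. Nlrp3, the inflammasome sensor, fell in the KO at P31 (-1.65 ± 0.41 SE, limma adjusted p = 0.0252), from 1224 to 1867 in controls to 154 to 787 in the KO. With age, 9 of the 11 had a log2 fold change above 0 in controls (median 0.20, all genes -0.10) and 8 of 11 in the KO (median 0.32, all genes 0.08), with 0 called. Among all 12868 genes tested, 5487 lay above 0 with age in controls and 7000 in the KO. Of the listed genes, the cytokine gene Cxcl2 was at 0 in every P31 library, and the cyclooxygenase gene Ptgs2 in every P31 and every P17 KO library.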

How the data were processed

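RNA was sequenced from 22 libraries of sorted retinal microglia. Per the submitters' processing notes, the tools were DESeq2 1.22.2, R 3.5.3, featureCounts, STAR 2.7.5b and FastQC 0.72, and the build was mm10. The deposited values are a normalised signal, read counts per gene over 1 size factor for each library, as the values show. Division by the value of 1 read gave whole reads for 100% of 349420 values above 0 (relative tolerance 1e-06). For 4 comparisons the authors' deposited table also holds adjusted p-values and log2 fold changes. The members and gene lists were chosen with earlier results of these data known.

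Libraries were grouped by labelled genotype and age. limma 3.58.1 (R 4.3.3, mean-variance trend, robust moderation) was fitted on log2(normalised count + 10) with 4 group means over 22 libraries. The log2 scale with a pseudocount of 10 understates changes of low genes. Genes needed 30 in at least 5 libraries, and p-values were adjusted by Benjamini-Hochberg. Values in every library were given for called members and, per role, the 2 with the highest mean count and the 1 with the widest range. Where a comparison had no call, the 2 members with the largest fold change were added, and other members were named for completeness. From each other list, up to 3 called genes per comparison were named. Some called genes of the cell type marker lists and of the mitochondrially encoded genes were not named.

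Alternatives were edgeR 4.0.16 and DESeq2 1.42.0 on recovered reads, other scalings, pseudocounts and filters, covariates, fits of the compared groups alone, a replicate block, and each library left out in turn. TMM scaling with P17 KO 1 left out was added after seeing the data. The fit was tested on simulated data. Positions are from GENCODE on mm10, and promoters from RefSeq on GRCm38.p6. Promoter motifs were searched with consensus patterns from general knowledge and are named without their letters.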

Additional observations from a re-analysis of the deposited data

Results flagged for a closer look

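In 68 groups of 4 to 10 libraries checked, 13 had an end value separated from the rest by a gap larger than Dixon's 95% limit. About 1 in 20 independent, normally distributed groups would pass that limit. The groups checked share libraries, so that rate is no measure for the 13 flags. Of these, 5 were low values of P17 KO 1, the library whose deposited size factor departed from TMM: Junb at 2514 (next 6335), Klf2 at 968 (next 1837), Btg2 at 1623 (next 6046), Hspa8 at 3895 (next 17752) and Hsph1 at 25.8 (next 909). P17 control 6 was apart in 3 members. It had the lowest Jun of the P17 controls at 2968 (next 4609), the lowest Rhob at 3637 (next 8957) and the highest Hsph1 at 1635 (next 820). This library also held both Xist and Y-linked transcripts.

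At P31, control 2 had the highest immediate early score of its group at 9.49 (next 9.15) and control 1 the highest Hsp90aa1 at 4290.0 (next 2124). In the P31 KO, KO 5 had the lowest Jun at 3619 (next 6751), KO 3 the highest Btg2 at 10903 (next 8163), and KO 4 the lowest Klf4 at 19.9 (next 113).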

How the results depend on the processing

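No value changed sign among results that were called, in any alternative run. The number of members called at P17 was 0 and became 1 with DESeq2 (Ier2), with the replicate block (Rhob) and without the 4 libraries holding both sex markers (Rhob). At P31 it was 1 and became 0 without the filter and with the rod score covariate, and 2 with DESeq2 and with TMM scaling and P17 KO 1 left out (Junb and Egr1). With age in controls it was 1 and became 0 without the filter, with edgeR, with the replicate block, with the rod score covariate and with the Y-linked covariate, 2 with DESeq2, and 3 when only the groups compared were fitted. With age in the KO it was 0 and became 4 with DESeq2, 2 without the libraries holding both sex markers, and 3 with TMM scaling and P17 KO 1 left out. Leaving out each library gave 0 to 1, 0 to 1, 0 to 1, 0 to 2 and 0 to 0 members in the 5 comparisons; the 2 were Klf2 and Hspa8 without P17 KO 1. The cause was not tested. Over all genes, calls ran from 94 to 575 at P17 (195 in the reported fit), 217 to 900 at P31 (371), 3 to 1017 with age in controls (188), 11 to 769 with age in the KO (114) and 0 to 183 for the difference (6). The immediate early score difference at P31 was 0.27 and became 0.62 with the median over members, and that with age in controls was -0.43 and became -0.66 with a pseudocount of 1. The median KO log2 fold change of the 21 tested early members at P31 was -0.10. Without 1 library each, the early score differences ran from -0.10 to 0.22 at P17, 0.21 to 0.35 at P31, -0.51 to -0.38 with age in controls and -0.39 to -0.06 in the KO, and the heat shock ones from -0.80 to -0.50, -0.61 to -0.19, -0.81 to -0.56 and -0.63 to -0.21. Same-numbered libraries of different groups did not deviate together (30 pairs, correlations of -0.14 to 0.12, median -0.00376, 2 over 0.1). In 12 of 60 checks a library matched best with its own number, so the numbers were not taken as a pairing. The block fit called 1, 1, 0, 0 and 0 members, and its Egr1 value is given above among the alternatives for that gene. Members with few reads, such as Fosb, Nr4a1, Hspa1a and Hspa1b, are limited by depth.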
